A study of Mus musculus with 12 samples.

Results

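The genes described here are 9 immediate-early genes, Fos, Fosb, Jun, Junb, Egr1, Atf3, Ier2, Ier3 and Myc, chosen by name from the 37748 genes of the count table. All 9 were found in the table, and all 9 passed the filter on low counts that left 16679 genes for testing. They were measured by RNA-seq in gastrocnemius muscle of 12 mice, 3 in each of 4 groups, 1 library per mouse. The mice belong to a model of facioscapulohumeral muscular dystrophy, in which the human transcription factor DUX4-fl is made in skeletal muscle after Cre recombination.

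Control mice were ACTA1-MCM/+, carrying only the Cre driver, a tamoxifen-inducible MerCreMer under the skeletal muscle ACTA1 promoter. FLExD mice were FLExDUX4/+, carrying only the conditional DUX4-fl transgene. Neither of these groups received tamoxifen (TMX). Moderate and severe mice were both FLExDUX4/+;MCM/+ bi-transgenic animals. The moderate group received 1 intraperitoneal injection of 5 mg/kg TMX, and the severe group received 2 injections of 10 mg/kg on consecutive days. Muscles of both were taken on day 9 after the first injection. All mice were 13 weeks old. Recombination in these animals is mosaic, so only some muscle nuclei carry the recombined transgene, and the driver is known to leak without TMX. Since no single-transgenic mouse was given TMX, the drug and the bi-transgenic genotype cannot be told apart in the comparisons with control. The sample description of the FLExD mice names a mild pathology, although their genotype is single-transgenic; they are called FLExD here. Bi-transgenic mice without TMX were not analysed here. Mice are numbered 1 to 3 within a group as names only.

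Immediate-early genes are switched on within minutes of a stimulus, without new protein synthesis, and their mRNAs and proteins are as a rule short-lived. FOS-family proteins (Fos, Fosb) form dimers with JUN-family proteins (Jun, Junb) to make the AP-1 transcription factor. ATF3 belongs to the same basic leucine zipper class and is induced by many kinds of cell stress. EGR1 is a zinc finger factor, MYC drives growth and proliferation, and Ier2 and Ier3 encode small nuclear and survival-related early-response proteins. In skeletal muscle these genes are known to respond to exercise, injury and denervation, and in bulk tissue they can come from fibers or from any other cell present.

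The 250 bases before the start site are shown for the 5 AP-1 class members, because these genes are compared with each other throughout. The sequences are from RefSeq on GRCm38.p6, 5′ to 3′ on the gene's own strand. The windows are chr12:85473640-85473889 on the plus strand for Fos, chr7:19310046-19310295 on the minus strand for Fosb, chr4:95052223-95052472 on the minus strand for Jun, chr8:84978749-84978998 on the minus strand for Junb and chr1:191183334-191183583 on the minus strand for Atf3. Capitals mark motif matches on either strand.
Fos: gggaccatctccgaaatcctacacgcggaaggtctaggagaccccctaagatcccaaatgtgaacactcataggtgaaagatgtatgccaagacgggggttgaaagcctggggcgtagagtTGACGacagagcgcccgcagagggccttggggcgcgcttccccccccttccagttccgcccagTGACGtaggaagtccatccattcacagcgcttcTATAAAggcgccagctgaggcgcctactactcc
Fosb: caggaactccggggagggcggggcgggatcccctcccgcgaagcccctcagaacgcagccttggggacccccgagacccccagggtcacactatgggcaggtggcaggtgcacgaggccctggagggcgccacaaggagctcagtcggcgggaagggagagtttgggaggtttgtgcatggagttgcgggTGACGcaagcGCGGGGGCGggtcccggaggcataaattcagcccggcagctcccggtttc
Jun: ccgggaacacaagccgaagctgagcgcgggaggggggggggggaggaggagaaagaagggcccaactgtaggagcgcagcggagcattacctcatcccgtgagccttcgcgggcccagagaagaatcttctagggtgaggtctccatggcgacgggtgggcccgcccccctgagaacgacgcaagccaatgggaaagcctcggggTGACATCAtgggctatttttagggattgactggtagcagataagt
Junb: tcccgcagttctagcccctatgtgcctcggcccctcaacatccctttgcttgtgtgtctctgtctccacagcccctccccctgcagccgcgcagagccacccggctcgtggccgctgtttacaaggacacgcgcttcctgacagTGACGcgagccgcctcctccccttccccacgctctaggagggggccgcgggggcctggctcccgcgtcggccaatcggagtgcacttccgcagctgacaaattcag
Atf3: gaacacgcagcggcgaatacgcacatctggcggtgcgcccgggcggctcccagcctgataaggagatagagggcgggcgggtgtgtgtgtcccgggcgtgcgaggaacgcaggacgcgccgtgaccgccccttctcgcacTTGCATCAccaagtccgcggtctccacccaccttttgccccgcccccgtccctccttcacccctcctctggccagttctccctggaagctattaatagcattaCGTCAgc

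In these windows, the CRE core TGACG was found in Fos (from -129 to -125 and from -66 to -62), Fosb (from -60 to -56), Junb (from -106 to -102) and Atf3 (from -7 to -3, on the other strand). It is the most common of the motifs searched, and 17.9% of all 32536 promoter windows held it. The Fos window also held a TATA box (TATAAA, from -33 to -28, present in 12.3% of windows). The Fosb window held an EGR site (GCGGGGGCG, from -50 to -42, in 2.6% of windows). The Jun window held the JUN site TGACATCA, a variant of the AP-1 site, from -45 to -38 (in 2.84% of windows). The Atf3 window held an ATF4-C/EBP site (TGATGNAA, on the other strand from -110 to -103, in 3.4% of windows). Neither the AP-1 site TGACTCA (4.45% of windows), the CRE TGACGTCA (1.56%), the E-box CACGTG (6.04%), the CArG box (1.48%) nor a DUX4 site (0.101%) was found in the windows of these 5 genes. The window of Ier3 held none of the 10 motifs. Bases further from the start sites were not searched, so an absent match says nothing of sites outside the windows. The annotated Atf3 gene reaches further upstream than the start site used here. A match describes the letters of a window and was not tested for binding.

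Total expected counts were 23796902 to 29136403 per mouse, and a gene with 3 counts, the limit used here for a detectable level, had 0.0676 to 0.155 CPM (counts relative to the TMM-adjusted library size). These limits cover counting error only. The standard errors and intervals given below come from the edgeR fit, which also takes in the spread between mice. Wfdc3, which DUX4-fl is known to induce in mouse muscle, had 3 to 8 counts in control, 1 to 8 in FLExD, 2005 to 2910 in moderate and 2776 to 4790 in severe libraries. Esr1, part of whose sequence is in MerCreMer, had 422 to 819 CPM in control and 95.9 to 124 CPM in moderate mice, while severe mice (35.2 to 37.4 CPM) lay inside the range of the FLExD mice (27.5 to 37.9 CPM). That overlap depends on the scaling, as Esr1 had 1475 to 1586 counts in severe and 554 to 786 counts in FLExD libraries. Muscle fiber markers (6 genes) summed to 122544 to 167642 CPM in control, 54786 to 66428 in moderate and 7965 to 14520 in severe mice. Macrophage markers (5 genes) summed to 54.9 to 66.2, 318 to 400 and 688 to 780 CPM, with 5 of 5 called higher in both models. Proliferation markers (3 genes) summed to 1.14 to 2.84, 61.7 to 75.5 and 200 to 255 CPM, and satellite cell markers (3 genes) to 2.33 to 4.03, 7.55 to 9.62 and 15.1 to 21.5 CPM. With TMM scaling, endothelial markers (4 genes) fell from 138 to 155 CPM in control to 60.4 to 71.7 CPM in severe mice. TMM factors were 0.706 to 0.724 in control and 1.69 to 1.87 in severe libraries, so a fall of this size may rest on the scaling. The marker sums were not computed on another scale. Of the T cell markers, 0 of 3 passed the filter. Neutrophil markers (3 of 4 tested) summed to 1.99 to 2.46 CPM in control, 1.57 to 2.81 in moderate and 3.67 to 4.08 in severe mice, with 2 called higher in the severe model, and the fourth, Ly6g, was at 0 in every library. These marker differences accompany every difference given below between a model and control, and their part in it was not tested. In bulk muscle, fewer cells of a type and less RNA per cell cannot be told apart.

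Both DUX4 models had higher levels of several immediate-early genes than control muscle. In the moderate model 5 of the 9 genes rose: Atf3 (9.68-fold), Fos (6.1-fold), Egr1 (4.06-fold), Junb (3.2-fold) and Myc (2.23-fold). In the severe model 5 rose as well: Atf3 (8.41-fold), Junb (3.89-fold), Egr1 (2.97-fold), Myc (2.67-fold) and Ier2 (2-fold). No member fell in either model. Jun, the most abundant member in control muscle, and Ier3 were not called in any comparison with TMM scaling. Scaled by library size only, Jun was called higher in both models and Ier3 in severe mice. Calls needed an adjusted p under 0.05 (edgeR, Benjamini-Hochberg over 16679 genes) together with a log2 fold change of at least 0.5 in either direction.

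These counts have to be read against a transcriptome in which much moved. Of all genes tested, 24.4% were called higher and 17.0% lower in moderate mice against control, and 32.9% and 27.9% in severe mice. The median log2 fold change of the 9 genes was 1.68 in the moderate model, beside 0.04 over all genes tested, and 1.35 in the severe model, beside 0.08. All 3 moderate mice lay above all 3 control mice for 5 members, a pattern seen in 32.6% of all genes. In the severe model this held for 6 members, the 5 called genes and Fos, and for 40.0% of all genes. Between severe and moderate mice, 17.6% of all genes were called higher and 18.8% lower, but 0 of the 9 members were called by edgeR. At an unadjusted p under 0.05, Fos and Jun lay lower in the severe group, and DESeq2 called 1 member, Fos, lower. Between FLExD and control mice 0 of 9 members were called, with 0 at an unadjusted p under 0.05 and 0 called by DESeq2. In that comparison 0% of all genes were called higher and 0.00600%, a single gene, lower, and 638 genes had an unadjusted p under 0.05. With 3 mice against 3, an exact permutation test of a single gene cannot give a two-sided p under 0.10, so the calls rest on the model fitted across all genes.

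**Figure D1:**
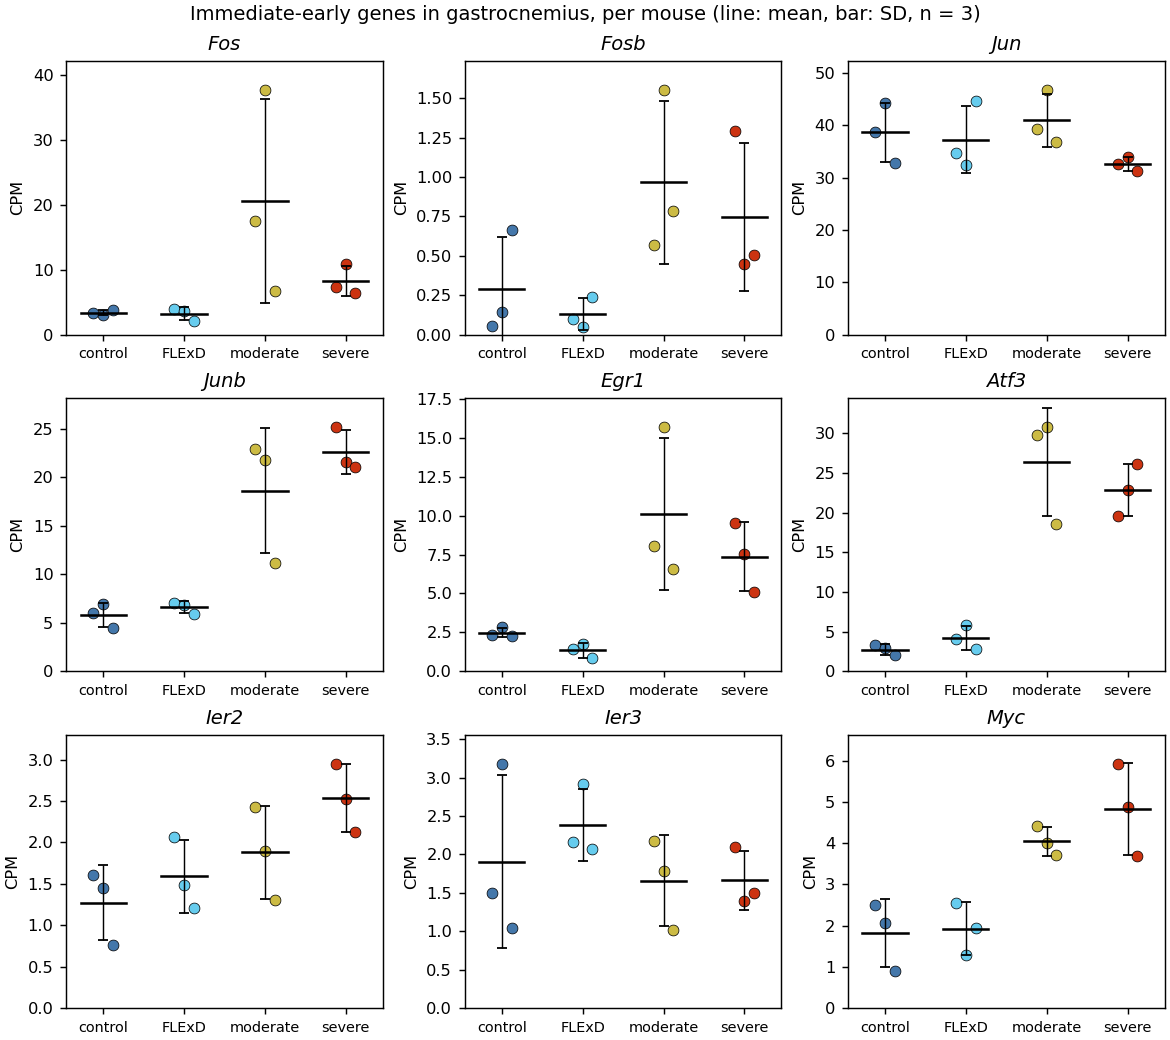
Level of each gene in CPM (y axis, linear, from 0) in each of the 12 mice (points) by group (x axis), with the mean as a line and the SD over 3 mice as a bar (bars that would reach below 0 are clipped). Atf3, Junb, Egr1 and Myc lie higher in all moderate and severe mice than in all control mice, Fos is widely spread among the moderate mice, and Jun and Ier3 overlap with control in every group.

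**Figure D2:**
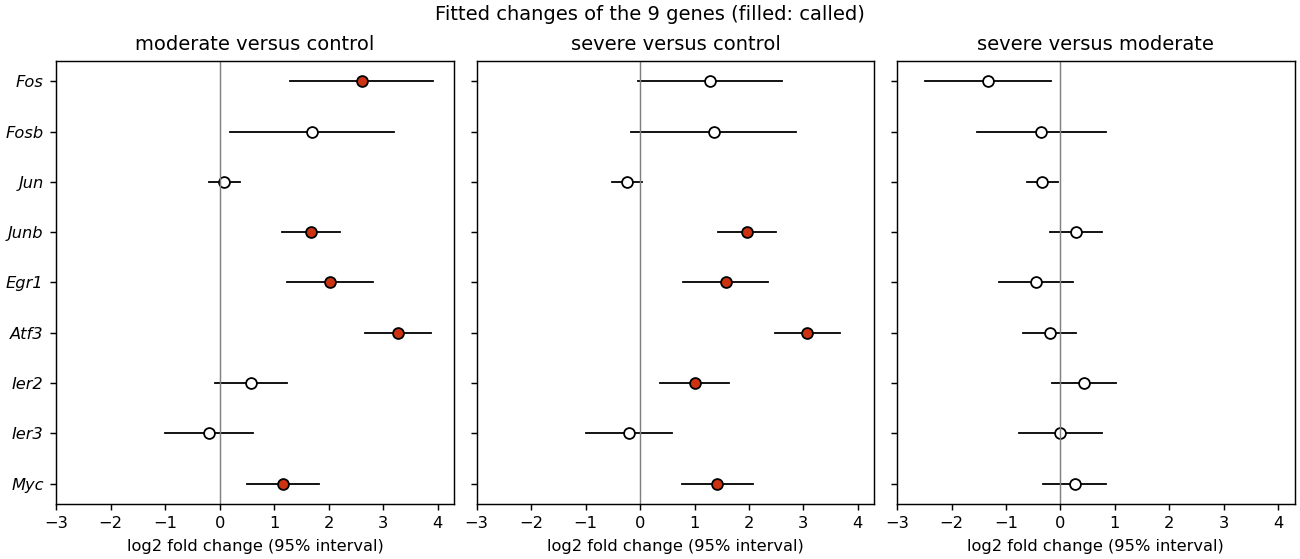
Fitted log2 fold change (x axis) with its 95% interval for each gene (y axis) in 3 comparisons. Filled points are called: 5 genes in moderate versus control, 5 in severe versus control and 0 in severe versus moderate.

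Fos encodes the founding FOS-family subunit of AP-1 and lies at chr12:85473890-85477273 (GRCm38, plus strand, protein-coding). Its level was 3.32, 2.99 and 3.79 CPM in the control mice and 3.89, 3.62 and 2.07 CPM in the FLExD mice. In the moderate mice it was 17.5, 37.6 and 6.66 CPM (555, 1090 and 204 counts), and in the severe mice 7.35, 10.8 and 6.43 CPM. Every mouse of both models was above every control mouse, but the moderate mice differed 5.65-fold among themselves. The lowest moderate mouse lay within the range of the severe mice. The log2 fold change against control was 2.61 ± 0.58 (SE) in moderate mice (adjusted p = 0.0041) and 1.28 ± 0.59 in severe mice (adjusted p = 0.0756, 95% interval -0.04 to 2.6). Severe minus moderate was -1.33 ± 0.51 (adjusted p = 0.0553, 95% interval -2.48 to -0.17), which was -0.57 without moderate mouse 2 and -1.73, and called lower (adjusted p = 0.00143), without moderate mouse 3. Moderate mouse 2 carried much of the height: without it the moderate change was 1.85 (adjusted p = 0.00289), and without moderate mouse 3 it was 3.00. The call in the severe model depended in part on the spread of the moderate mice, which enters the shared fit: with only the severe and control mice fitted, the log2 fold change was 1.27 with an adjusted p of 0.00059. It was also called without moderate mouse 2 (adjusted p = 0.00964) or moderate mouse 3 (adjusted p = 0.00573). With all moderate mice kept, it was called by DESeq2 (adjusted p = 0.0318) and by edgeR on library size alone (adjusted p = 0.00215). The same held against the 6 single-transgenic mice (adjusted p = 0.0215) and with at least 10 counts in every sample (adjusted p = 0.0385). In 15 of 24 alternatives it was not called.

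Fosb, the second FOS-family subunit measured, lies at chr7:19302696-19310051 (minus strand) and was the least abundant member. It had 1, 3 and 14 counts in the control mice (0.0518, 0.145 and 0.664 CPM) and 2, 1 and 5 counts in the FLExD mice (0.0984, 0.0496 and 0.241 CPM). The moderate mice had 0.568, 1.55 and 0.783 CPM and the severe mice 1.29, 0.448 and 0.507 CPM, from 18 to 57 counts. Control mouse 3 lay above 1 moderate and 2 severe mice, so the groups overlap, and several of the single-transgenic values are at or under the 3-count limit. Against control, the log2 fold change of Fosb was 1.70 ± 0.70 in moderate mice (adjusted p = 0.0552) and 1.35 ± 0.70 in severe mice (adjusted p = 0.1), neither called. Leaving out control mouse 3 gave 3.18 (adjusted p = 0.00749) and 2.84 (adjusted p = 0.0106), both called. With all control mice kept, the moderate change was called by DESeq2 (1.71, adjusted p = 0.04), and the severe change was not (1.35, adjusted p = 0.0927). Both were called against the FLExD mice (2.84, adjusted p = 0.00987, and 2.48, adjusted p = 0.0153) and against the 6 single-transgenic mice (2.16, adjusted p = 0.0067, and 1.81, adjusted p = 0.0139). Scaled by library size only, both were called as well (2.29, adjusted p = 0.0105, and 2.65, adjusted p = 0.00269). In the moderate model, leaving out moderate mouse 1 (adjusted p = 0.0412) or severe mouse 1 (adjusted p = 0.0338) also brought the call.

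Jun encodes the main partner of the FOS proteins and lies at chr4:95049034-95052222 (minus strand, 1 exon). It was at 38.8, 44.3 and 32.9 CPM in control, 34.8, 32.5 and 44.6 in FLExD, 39.3, 46.7 and 36.9 in moderate and 32.7, 34 and 31.3 in severe mice. The control, FLExD and moderate mice overlap, and the severe mice lie below all moderate mice, as was the case for 30.8% of all genes. Against control, the fitted log2 fold change of Jun was 0.08 ± 0.13 in moderate mice (95% interval -0.2 to 0.37) and -0.24 ± 0.13 in severe mice (95% interval -0.52 to 0.04, adjusted p = 0.114). Severe minus moderate was -0.33 ± 0.13 (adjusted p = 0.0507). Jun was thus the member with the narrowest intervals, which leave out changes of 2-fold in either direction under this scaling. Its counts were not whole in 12 of 12 mice, so some of its reads were divided with other genes. The antisense gene Junos, listed in the table as BC042782, shares 232 exonic bases with Jun and had 14 to 62 counts per mouse, against 656 to 1452 for Jun. The counting is not stated to use strand, so reads of this stretch cannot be assigned to one of the pair.

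Junb encodes a second JUN-family subunit, one that restrains proliferation in many cells and is known to maintain muscle mass, and lies at chr8:84974484-84978718 (minus strand). It was at 6.06, 6.94 and 4.46 CPM in control and 7.08, 6.79 and 5.93 in FLExD mice. Moderate mice had 22.9, 21.8 and 11.2 CPM and severe mice 25.2, 21.6 and 21.1 CPM. Even the lowest moderate mouse lay above every single-transgenic mouse, and the 3 severe mice were close together. The fitted log2 fold change against control was 1.68 ± 0.24 in moderate mice (adjusted p = 9.24e-05) and 1.96 ± 0.24 in severe mice (adjusted p = 1.11e-05). Severe minus moderate was 0.28 ± 0.22, with a 95% interval of -0.19 to 0.76. Junb shares 173 exonic bases with the antisense gene Prdx2, which had 76.1 to 95.2 CPM in control, 99.8 to 107 CPM in moderate and 71.3 to 84.2 CPM in severe mice. In moderate mice Prdx2 lay above all control mice, as Junb did, and in severe mice it overlapped with control. The counts of Junb were not whole in 0 of 12 mice, so no sign of reads divided with another gene was seen. The counting is not stated to use strand, and the part of the shared stretch in the Junb values was not tested.

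Atf3, the stress-induced member, lies at chr1:191170296-191218039 (minus strand) and showed the largest change of the 9 genes in both models. It was at 3.32, 2.89 and 1.99 CPM in control and 4.03, 5.8 and 2.84 CPM in FLExD mice. Moderate mice had 29.8, 30.8 and 18.6 CPM and severe mice 19.6, 22.9 and 26.2 CPM. The single-transgenic and bi-transgenic values are far apart, while moderate and severe mice overlap. Fitted against control, the log2 fold change of Atf3 was 3.27 ± 0.28 in moderate mice (adjusted p = 1.07e-06) and 3.07 ± 0.28 in severe mice (adjusted p = 6.32e-07). Severe minus moderate was -0.20 ± 0.22 (95% interval -0.69 to 0.29). FLExD minus control was 0.63 ± 0.31 (unadjusted p = 0.064, adjusted p = 1), with overlapping mice. The small RNA gene Gm24748 lies inside an Atf3 intron and shares 0 exonic bases with it.

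Egr1 encodes the zinc finger factor that is often the fastest of these genes to respond and lies at chr18:34859823-34864984 (plus strand). It was at 2.33, 2.84 and 2.28 CPM in control and 1.43, 1.78 and 0.82 CPM in FLExD mice. Moderate mice had 8.05, 15.7 and 6.59 CPM and severe mice 9.51, 7.52 and 5.1 CPM. All mice of the models lay above all control mice, and all FLExD mice lay below them. The edgeR estimate against control was a log2 fold change of 2.02 ± 0.36 in moderate mice (adjusted p = 0.000478) and 1.57 ± 0.36 in severe mice (adjusted p = 0.00177). FLExD minus control was -0.89 ± 0.44 (unadjusted p = 0.068, adjusted p = 1), and 4.59% of all genes had every FLExD mouse below every control mouse. Severe minus moderate was -0.45 ± 0.31 (95% interval -1.13 to 0.23).

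Myc, which encodes the growth-promoting partner of MAX, lies at chr15:61985391-61990374 (plus strand) and was at 2.49, 2.07 and 0.901 CPM in control and 2.56, 1.29 and 1.93 CPM in FLExD mice. Moderate mice had 4.42, 4 and 3.72 CPM, the tightest values of any member in that group, and severe mice 5.93, 4.88 and 3.7 CPM. The models lay above all single-transgenic mice and overlapped with each other. On the log2 scale, Myc differed from control by 1.16 ± 0.31 in moderate mice (adjusted p = 0.00584) and 1.42 ± 0.30 in severe mice (adjusted p = 0.000779). Severe minus moderate was 0.26 ± 0.27, with a 95% interval of -0.32 to 0.83.

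Ier2, a small nuclear early-response gene at chr8:84661331-84662852 (minus strand, 1 exon), was at 1.61, 1.45 and 0.758 CPM in control and 2.07, 1.49 and 1.21 CPM in FLExD mice. Moderate mice had 2.43, 1.9 and 1.31 CPM and severe mice 2.95, 2.52 and 2.13 CPM. The severe mice lay just above all control and FLExD mice, and the moderate mice overlapped with both. On the log2 scale, Ier2 differed from control by 0.57 ± 0.31 in moderate mice (adjusted p = 0.137) and 1.00 ± 0.30 in severe mice (adjusted p = 0.00784). The difference between the models was 0.43 ± 0.27 (adjusted p = 0.203, 95% interval -0.15 to 1.02), so the call in 1 model only does not show that they differ. Ier3, which encodes a regulator of survival and of ERK signalling, lies at chr17:35821684-35822923 (plus strand). It was at 1.5, 3.18 and 1.04 CPM in control, 2.16, 2.92 and 2.07 in FLExD, 2.18, 1.79 and 1.01 in moderate and 2.1, 1.39 and 1.5 in severe mice. All 4 groups overlap. On the log2 scale, Ier3 differed from control by -0.20 ± 0.37 in both models, with 95% intervals of -1.01 to 0.61 and -0.99 to 0.59, which still allow a 1.5-fold change either way.

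The spread between mice of 1 group was compared with that of all genes tested, without matching for level, so counting error weighs more on the members with few counts. The median coefficient of variation of the 9 genes was 24.8% in control, 30.7% in FLExD, 34.8% in moderate and 22.9% in severe mice. Over all genes tested it was 13%, 12.1%, 10.8% and 11.9%. In the 4 groups, 7, 8, 8 and 7 of the 9 members lay above the median of all genes. Fos in the moderate model had a coefficient of variation of 76.2%, higher than 98.7% of all genes in that group, although it rested on 204 to 1090 counts per mouse. In control muscle Fos was at 12%, lower than the median gene. Fosb had 115% in control and 62.5% in severe mice on far fewer counts. In control mice Ier2 had 16 to 31 counts, Myc 19 to 48 and Ier3 22 to 66, and for these as for Fosb counting error is part of the spread. Jun in severe mice was the steadiest value, at 4.1%.

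In each group 1 mouse held the lowest level of most members. Moderate mouse 3 had the lowest level of its group for 8 of the 9 genes, all but Fosb, and moderate mouse 2 the highest for 5. Control mouse 3 was lowest for 7 genes but highest for Fos and Fosb. FLExD mouse 3 and severe mouse 3 were each lowest for 6 genes, and severe mouse 1 highest for 6. The summed level of the 9 genes was 48.7 to 66.8 CPM in control, 56.3 to 61.7 in FLExD, 127, 162 and 86.7 in moderate and 98 to 107 in severe mice. The numbers of genes describe these mice, and since all genes of a mouse share 1 library and its scaling, they are not independent of each other. Which mouse was highest or lowest was not counted over all genes tested, so these numbers have no background beside them. The labels give no dissection order, day or sequencing batch.

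**Figure D3:**
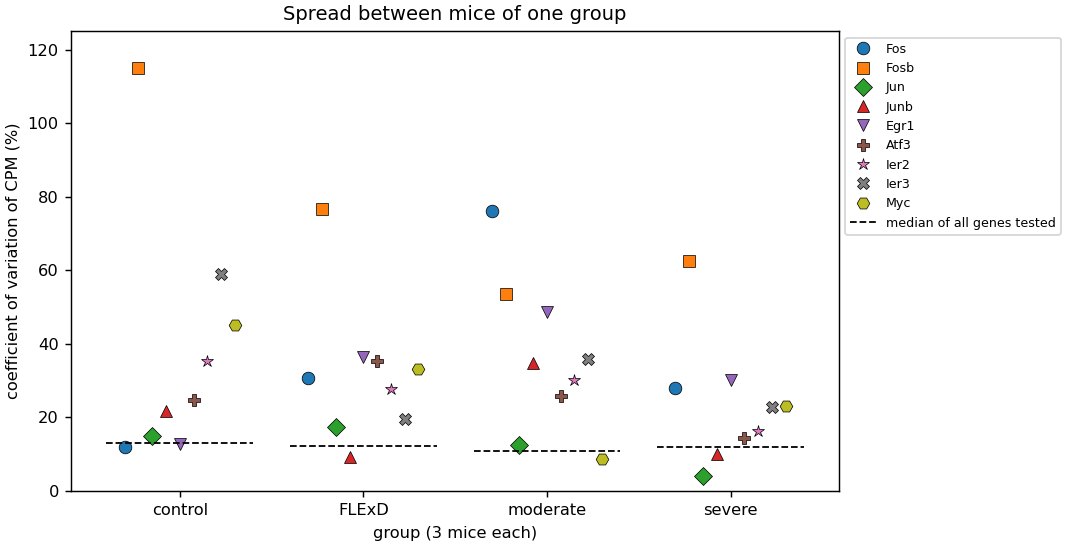
Coefficient of variation of CPM in percent (y axis) over the 3 mice of each group (x axis) for each of the 9 genes (symbols), with the median of all genes tested as a dashed line. Most symbols lie above the line in every group, with Fosb at 115% in control and Fos at 76.2% in the moderate model the widest.

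The order of the genes per length, in the TPM values the authors deposited, changed from control to the severe model. In control muscle Jun led with 13.4 ± 1.78 TPM (SD, n = 3), followed by Junb (3.98 ± 0.774) and Ier3 (2.74 ± 1.53), which lay within their spread of each other. The next genes, Atf3 (1.75 ± 0.362), Fos (1.67 ± 0.249), Ier2 (1.32 ± 0.422) and Myc (1.32 ± 0.321), did not differ beyond their spread. Egr1 (0.713 ± 0.0924) and Fosb (0.193 ± 0.112) were lowest. FLExD muscle had the same first 4 genes, with Jun at 13.1 ± 3.81 and Junb at 4.45 ± 0.0608 TPM. In moderate mice Jun (19.6 ± 3.94), Atf3 (19.6 ± 5.68), Junb (17.9 ± 6.49) and Fos (13.1 ± 10.4) were within their spread of each other. In severe mice Junb (35.9 ± 5.68) came before Atf3 (28.1 ± 2.92) and Jun (25.8 ± 3.47), each within its spread of the next, and Fos followed at 8.4 ± 2.76 TPM. Most genes with 0 counts carry a small TPM above 0 in the deposited table, so the TPM of Fosb is less certain than the others.

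The share of Jun within the AP-1 class members is a measure that does not depend on scaling between libraries. Jun made up 63.1% to 65% of the summed TPM of Fos, Fosb, Jun, Junb and Atf3 in control mice and 53.3% to 68.6% in FLExD mice. It made up 25% to 36.3% in moderate and 25% to 26.7% in severe mice. The single-transgenic and bi-transgenic mice did not overlap in this share. Moderate mouse 3, the mouse with the lowest levels of most members, had the highest share of its group.

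The scaling between libraries bears on Jun and Ier3 most. TMM factors were 0.706 to 0.76 in single-transgenic, 1.06 to 1.13 in moderate and 1.69 to 1.87 in severe libraries. With library size alone, the median log2 fold change of all genes was 0.646 for moderate mice, 1.39 for severe mice and 0.715 between them, in place of 0.04, 0.08 and 0.02. On log2(TPM + 1) it was 0.287, 0.791 and 0.487. Jun in the moderate model was 0.69 with library size alone and was called higher (adjusted p = 0.000813), in place of 0.08. In severe mice Jun was 1.06 with library size alone (adjusted p = 8.48e-06) and 0.89 on log2(TPM + 1), both called higher, in place of -0.24. Ier3 in the severe model was 1.11 and 0.85, both called higher, in place of -0.20. With library size alone both values lay below the 1.39 of the median gene, and on log2(TPM + 1) both lay close to its 0.791. In the comparison of the models, library size alone turned the sign of Fosb, Jun, Egr1 and Atf3. Atf3, Fos, Egr1, Junb and Myc in the moderate model and Atf3, Junb, Egr1, Myc and Ier2 in the severe model were called higher under every scaling tried.

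**Figure D4:**
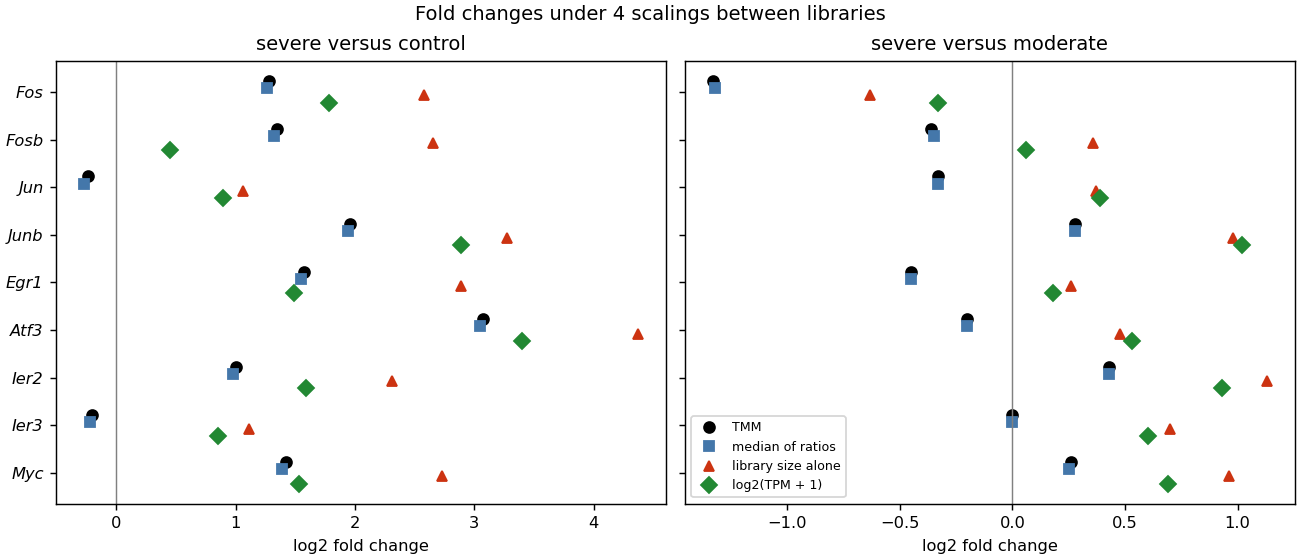
Log2 fold change (x axis) of each gene (y axis) under 4 scalings: TMM, median of ratios, library size alone, and log2(TPM + 1). TMM and median of ratios nearly coincide, and library size alone moves every gene to the right, which takes Jun and Ier3 from below to above 0 in severe versus control.

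The other genes of the pathway were taken from lists, each given here in full by its counts. Of 7 other AP-1 subunits, 4 were called higher in moderate mice and 5 in severe mice, with 0 lower, beside 24.4% and 32.9% of all genes called higher. Jdp2, which encodes a repressive dimer partner of JUN proteins, was at 2.56 ± 0.8 CPM (SD, n = 3) in control and 10.6 ± 2.53 in severe mice, a log2 fold change of 2.04 ± 0.22 (SE, adjusted p = 1.3e-06). Fosl1, the FOS-related FRA-1 subunit, rose from 0.855 ± 0.292 to 2.93 ± 0.33 CPM (log2 fold change 1.78 ± 0.26, adjusted p = 2.94e-05). Both were also higher in severe than in moderate mice, by 0.97 for Jdp2 (adjusted p = 0.0011) and by 1.26 for Fosl1 (adjusted p = 0.000611).

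Of 12 other early-response regulators tested, 8 rose in the moderate model (24.4% of all genes), and 7 rose and 1 fell in the severe model (32.9% and 27.9% of all genes). The orphan nuclear receptors moved differently from each other. Nr4a3 was at 0.732 ± 0.229 CPM in control, 9.51 ± 4.41 in moderate and 2.84 ± 1.36 in severe mice, with log2 fold changes against control of 3.68 and 1.94. Nr4a1 was at 43.1 ± 7.62 CPM in control, 39.3 ± 15.2 in moderate and only 7.51 ± 0.765 in severe mice, a log2 fold change of -2.52 that was called lower under every scaling tried. Egr2, a relative of Egr1, rose from 0.491 ± 0.0947 to 1.8 ± 0.0771 CPM in severe mice (log2 fold change 1.87). Csrnp1, a nuclear early-response gene, rose by 1.07 on the log2 scale. Of these 12 genes, 4 were lower and 0 higher in severe than moderate muscle, beside 18.8% and 17.6% of all genes.

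Kinases and cofactors that act upstream of the immediate-early genes had more lower than higher calls with TMM scaling, and 0 lower calls with library size alone. Of 12 tested, 0 rose and 4 fell in the moderate model, and 2 rose and 6 fell in the severe model. Of all genes, 17.0% and 27.9% were called lower in these comparisons and 24.4% and 32.9% higher. Srf, the serum response factor that binds the CArG box, was at 70.7 ± 4.41 CPM in control, 38.4 ± 5.68 in moderate and 25.3 ± 0.767 in severe mice (log2 fold change -1.48 ± 0.11, severe). Mapk14 (p38α, -1.37), Mapk9 (JNK2, -1.30) and the SRF cofactor Mkl2 (-1.03) fell as well. These calls rest on the scaling: with library size alone, 7 of the 12 were called higher in the severe model, and Mkl2 was at 0.28, while Srf stayed below 0 at -0.18. Muscle fiber markers fell in the same mice, with 6 of 6 called lower in the severe model.

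Of 16 feedback inhibitors, which dampen the signals and mRNAs of the early response, 6 rose and 0 fell in the moderate model, and 8 rose and 2 fell in the severe model. Higher calls were made for 24.4% and 32.9% of all genes and lower calls for 17.0% and 27.9%. Scaled by library size only, 13 and 15 of them were called higher in the 2 models and 0 lower. Dusp2 and Dusp5, nuclear phosphatases that inactivate ERK, rose from 0.39 ± 0.261 to 4.19 ± 0.694 CPM (log2 fold change 3.40) and from 0.25 ± 0.145 to 2.15 ± 0.374 CPM (3.10) in severe mice. Socs3, an inhibitor of cytokine signalling, rose from 1.11 ± 0.156 to 4.82 ± 1.25 CPM (2.12). Dusp1, a phosphatase that inactivates MAP kinases, fell from 73.8 ± 6.92 to 20.6 ± 8.18 CPM (-1.84), which was -0.55 and not called with library size alone.

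Of 10 AP-1 target genes, 8 rose in moderate mice and 9 in severe mice, with 0 lower, where 24.4% and 32.9% of all genes were called higher. They include Spp1 (osteopontin, 1.16 ± 0.47 to 163 ± 41.5 CPM in severe mice), Timp1 (an inhibitor of matrix proteases, 0.516 ± 0.224 to 37.1 ± 1.69 CPM) and Plaur (the urokinase receptor, 0.441 ± 0.0359 to 7.2 ± 0.806 CPM). The matrix protease gene Mmp13 was at 0 to 0.0948 CPM in control and 0.991 to 1.96 CPM in severe mice. From moderate to severe mice 7 of these 10 rose further (17.6% of all genes were called higher). In that same edgeR fit with TMM scaling, Fos, Fosb, Jun, Junb and Atf3 themselves were not called between the models. With library size alone, edgeR called Junb higher in severe mice (0.98, adjusted p = 0.00239). On log2(TPM + 1), limma called Junb (1.02, adjusted p = 0.00135) and Atf3 (0.53, adjusted p = 0.0195) higher. Spp1 and Plaur are also made by macrophages, and the macrophage markers rose in the same mice.

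Of 10 MYC target genes, 3 rose and 1 fell in the moderate model, close to the 24.4% and 17.0% of all genes, and 7 rose and 1 fell in the severe model, beside 32.9% and 27.9%. The moderate counts moved with the settings, to 7 higher and 0 lower with library size alone or on log2(TPM + 1), and to 0 higher and 0 lower when a log2 fold change of at least 1 was asked for. In severe mice Npm1 (nucleophosmin) rose from 84.8 ± 8.85 to 218 ± 4.48 CPM, Cad (pyrimidine synthesis) from 8.66 ± 0.683 to 23.7 ± 6.95 CPM and Cdk4 (a cell cycle kinase) from 19.1 ± 0.425 to 46.4 ± 3.53 CPM. Ldha, the muscle form of lactate dehydrogenase, fell from 2440 ± 267 to 567 ± 144 CPM, as fiber markers did. Of 10 MYC network partners, 3 rose and 2 fell in the moderate model, and 2 rose and 2 fell in the severe model. These shares lie near or below those of all genes (24.4% and 17.0% in moderate, 32.9% and 27.9% in severe mice). Scaled by library size only, 5 and 8 of these partners were called higher and 0 lower. Mycl1, a MYC paralog, was at 0.224 ± 0.151 CPM in control and 5.83 ± 1.04 CPM in severe mice (log2 fold change 4.65). Mxd3, a MAX partner of proliferating cells, went from 0.178 ± 0.0948 to 2.92 ± 0.366 CPM (3.99). Mxi1, a MYC antagonist, fell from 45.8 ± 4.28 to 16.1 ± 0.692 CPM (-1.50), which was -0.20 and not called with library size alone. In FLExD mice 0 genes were called in any of these 7 lists.

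**Figure D5:**
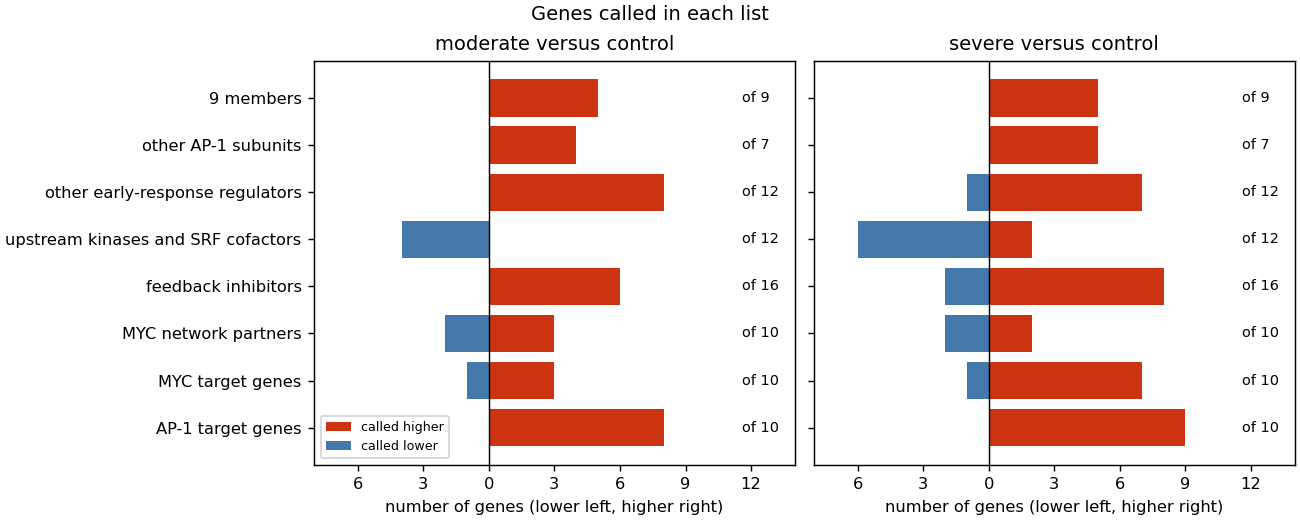
Number of genes called higher (bars to the right) and lower (bars to the left) in each list (y axis), out of the number tested at the right margin, for moderate and severe versus control. AP-1 targets and other AP-1 subunits show higher calls only, and upstream kinases and SRF cofactors show mostly lower calls (4 of 12 and 6 of 12) under TMM scaling.

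The gene outside the 9 whose profile was most like each member was found from log2 CPM, standardised over the 12 mice, by the root mean square difference (0 for identical profiles). Atf3 had the closest match, Gem (a small GTPase of the RGK family), at 0.13. Gem was at 1.74 CPM in control, 2.29 in FLExD, 11.4 in moderate and 11.3 in severe mice. Junb was most like Trim30c (0.21), Myc most like Klc3 (0.26), Egr1 most like Flnc (filamin C, 0.28), Fosb most like Fndc1 (0.31), Fos most like Xirp1 (0.32) and Ier2 most like Arid5a (0.34). Flnc (524 CPM in control, 1067 in moderate, 878 in severe mice) and Xirp1 (98.5, 271 and 193 CPM) encode actin-binding proteins of muscle fibers. Both had, as Egr1 and Fos did, their highest mean CPM in the moderate model. For Egr1 this order depends on the scaling, with a mean of 3.44 TPM in moderate and 3.91 TPM in severe mice. The means of Fos kept it, at 13.1 ± 10.4 and 8.4 ± 2.76 TPM (SD). For Flnc and Xirp1 it was not computed on another scale and may depend on the scaling as well. Jun (Trpc6, 0.45) and Ier3 (Doc2g, 0.52) had no match as close. Among the members themselves Junb and Atf3 were the nearest pair (0.30), followed by Fos with Egr1 and Junb with Myc (0.46 each), and Fosb and Ier3 the farthest (1.70). Trim30c (means of 0.0825 and 0.0984 CPM) and Klc3 (0.117 and 0.146 CPM) were close to or under the level of 3 counts in control and FLExD mice, so that part of their profiles rests on very few reads. The likeness is a description over 12 mice in which group differences and the spread between mice both count.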

How the data were processed

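RNA-seq libraries (polyA-selected, single-end reads of 50 bases per the methods of the study, strand not stated) of gastrocnemius muscle from 12 mice were analysed. The authors mapped reads with RSEM (version 1.2.4, calling Bowtie) to a merged UCSC, Ensembl and MISO annotation of mm10, with TopHat 2.0.8b for unaligned reads, and deposited expected counts of 37748 genes without normalization. The authors also deposited TPM from the same estimates; since 164142 of 164417 zero-count entries carry a positive TPM, it served to order genes, for the share of Jun among the AP-1 class members, and as an alternative.

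From these, expected counts were rounded, filtered (filterByExpr, 16679 genes) and tested with edgeR 4.0.16 (TMM, robust quasi-likelihood) in R 4.3.3, in 1 fit of 4 groups with 4 contrasts and Benjamini-Hochberg adjustment over all genes tested. The fold threshold (log2 0.5) is that of the study, whose rule of pairwise Bayes factors was replaced by a count model. Standard errors were derived from the F statistic. The script was tested on simulated counts with 200 changed genes, as many by 2-fold as by 4-fold. There edgeR with TMM recovered 54 of the 2-fold and 87 of the 4-fold changes, with 7 false calls. A gene not called can therefore still have changed. The 200 genes were among 14601, a far smaller share than was called in the mice. Against control, 24.4% of genes were called higher and 17.0% lower in moderate mice, and 32.9% and 27.9% in severe mice. The number of false calls where so many genes differ was not tested. Alternatives were DESeq2 1.42.0, edgeR on library size alone or median-of-ratios factors, limma 3.58.1 on log2(TPM + 1) and log2(TPM + 0.1), no filter, at least 10 counts in every sample, only 2 groups, other fold thresholds, FLExD mice or the 6 single-transgenic mice as comparator, and each mouse left out.

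Each list is represented by name by up to 4 called genes, those that changed most in severe versus control mice without any overlap of the mice and averaged 50 or more counts where higher. All 9 members are described. The members and lists were chosen with earlier results of these data known. GENCODE M21 (GRCm38, 35982 identifiers matched) gave the overlaps, and RefSeq the promoter windows, where 6 members matched. No 2 libraries were alike: at least 61.8% of genes differed between any pair. Xist was above 10 CPM in all 12 mice. Figures used matplotlib 3.10.9.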

Additional observations from a re-analysis of the deposited data

How the results depend on the processing

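No paired analysis was possible because the labels give mouse identities and no replicate numbers shared between groups. None of the 10 member calls against control was lost under any alternative, leaving out each mouse included, and no call was made between FLExD and control. Of 832 recomputed fold changes of the 9 genes, 755 kept direction and call, 40 became called in the same direction and 37 turned sign. Some of those that turned sign also became called, Jun and Ier3 in the severe model among them. The counts moved with the scaling. Members called higher in the moderate model went from 5 to 8 with library size alone and 8 on log2(TPM + 0.1). In the severe model they went from 5 to 9 with library size alone, 8 on log2(TPM + 1) and 9 on log2(TPM + 0.1). Between severe and moderate, members called higher went from 0 to 4 on either TPM scale (Junb, Ier2, Myc and Atf3). In that comparison they went to 3 with library size alone, Atf3 not among them. Members called lower there went from 0 to 1, Fos, with DESeq2, with at least 10 counts in every sample (where Fosb was not tested) and with the 6 single-transgenic mice as comparator, and was 0 to 1 over the mice left out, being 1 without moderate mouse 3 (Fos -1.73, adjusted p = 0.00143). Fos in the severe model was called in 9 of 24 alternatives, DESeq2 among them (adjusted p = 0.0318), and its adjusted p ranged from 0.00059 to 0.189.

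With library size alone, on log2(TPM + 1) and on log2(TPM + 0.1), in that order, the following log2 fold changes turned sign. Against control they were 0.41, 0.25 and 0.34 for Ier3 in the moderate model, 1.11, 0.85 and 1.08 for Ier3 in the severe model, and 1.06, 0.89 and 0.94 for Jun in the severe model. They were 0.47, 0.29 and 0.30 for Nr4a1 and 0.21, 0.03 and 0.03 for Dusp1 in the moderate model and 0.28, 0.28 and 0.33 for Mkl2 in the severe model. Between severe and moderate they were 0.36, 0.06 and 0.10 for Fosb, 0.37, 0.39 and 0.41 for Jun, 0.26, 0.18 and 0.24 for Egr1, and 0.48, 0.53 and 0.56 for Atf3. On the TPM scales alone, Myc in FLExD mice was -0.02 and -0.04, and Mapk9 in the severe model 0.23 and 0.24. Beyond the TMM factors, which are larger in the severe libraries, the cause was not tested.

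Over the mice left out in turn, the values that turned sign ranged in FLExD mice from -0.25 to 0.15 for Fos, -1.93 to 0.37 for Fosb, -0.21 to 0.06 for Jun and -0.24 to 0.37 for Myc. They ranged from -0.05 to 0.16 for Jun, -0.53 to 0.36 for Ier3 and -0.49 to 0.03 for Nr4a1 in the moderate model, and from -0.51 to 0.38 for Ier3 in the severe model. For severe against moderate they ranged from -1 to 0.15 for Fosb and from -0.68 to 0.01 for Egr1. Depth limits Fosb most, which had 1 to 14 counts in the single-transgenic mice.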
